A study of Mus musculus with 34 samples.

Results

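Jun binding was compared between resting macrophages of PPARγ knockout and wild-type mice. The data were the Jun ChIP-seq peak lists of both genotypes, with 15548 peaks in wild type and 4290 in the knockout, of 596383 peaks in the 30 lists of the series. The series covers AP-1 monomers, PU.1, CEBPα and PPARγ over 34 samples, and 2 of them are described here. Both samples were thioglycollate elicited macrophages (TGEMs), which are recruited into the mouse peritoneum by an irritant, and both received PBS (Veh), the vehicle of the TLR4 agonist KLA. The wild-type sample came from male C57Bl/6 mice and the other sample from mice labelled PPARgKO on the C57Bl/6 background. Other lists of the series were set beside them. These were Veh lists of other factors in C57BL/6 and knockout TGEMs, and Jun lists of C57BL/6 TGEMs treated with KLA for 1 h. Jun lists of TGEMs from a second strain, BALB/cJ, with Veh and with KLA for 1 h, were used as well. The sources used here do not give the allele, or the Cre line and its cell type if one was used, of the knockout, and no PPARγ list from knockout cells was analysed here. Peaks that overlapped by 1 bp or more were joined, which gave 16444 loci. A locus with a peak in both lists was called kept, one with a wild-type peak alone lost, and one with a knockout peak alone gained. Each genotype has 1 list for all of its replicate experiments, so no test between replicates was possible, and the 95% intervals below cover counting over loci and not variation between mice.

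Jun is a basic leucine zipper protein that binds DNA as an AP-1 dimer, either with a second Jun family protein or with a Fos or ATF protein. The classical AP-1 site is the TRE, a palindrome around a central C or G. In macrophages AP-1 binds largely at enhancers that are opened together with PU.1 and CEBPα, the factors that set macrophage identity. PPARγ is a nuclear receptor of fatty acids that pairs with RXR on direct repeats of AGGTCA, and it drives genes of lipid uptake and storage in macrophages.

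The windows around the strongest loci are shown as examples of kept, lost and gained sites, and no contrast between the classes was tested in them. Each is the 200 bp around the peak centre on the plus strand of mm10, with every TRE (TGACTCA on either strand) in capitals. They were taken in order of count within each class, without windows that touch a UTR, which left out the second strongest lost locus, at Lyz2. Loci off the assembled chromosomes were left out as well, and these held the 5 strongest gained loci, with knockout counts of 71 to 128. The names are those of the gene with the nearest TSS.
She, kept, chr3:89861276-89861475: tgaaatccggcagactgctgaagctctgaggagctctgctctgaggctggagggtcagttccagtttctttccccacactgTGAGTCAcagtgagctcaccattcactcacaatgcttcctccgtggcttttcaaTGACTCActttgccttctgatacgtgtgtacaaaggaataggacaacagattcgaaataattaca
Slfn2, kept, chr11:83045728-83045927: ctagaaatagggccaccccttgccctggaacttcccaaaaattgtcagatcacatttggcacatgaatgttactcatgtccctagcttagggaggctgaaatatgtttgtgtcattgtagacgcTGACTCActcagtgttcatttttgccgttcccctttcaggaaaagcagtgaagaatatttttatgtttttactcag
Iqgap1, kept, chr7:80830485-80830684: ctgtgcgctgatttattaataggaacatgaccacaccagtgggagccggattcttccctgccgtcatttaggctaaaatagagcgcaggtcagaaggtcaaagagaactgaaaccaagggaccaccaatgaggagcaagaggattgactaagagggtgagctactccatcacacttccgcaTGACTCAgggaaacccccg
Tmem230, lost, chr2:132221606-132221805: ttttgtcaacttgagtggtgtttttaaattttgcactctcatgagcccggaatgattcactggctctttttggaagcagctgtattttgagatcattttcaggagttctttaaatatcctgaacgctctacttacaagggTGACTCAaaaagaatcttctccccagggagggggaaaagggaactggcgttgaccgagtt
Tubd1, lost, chr11:86586971-86587170: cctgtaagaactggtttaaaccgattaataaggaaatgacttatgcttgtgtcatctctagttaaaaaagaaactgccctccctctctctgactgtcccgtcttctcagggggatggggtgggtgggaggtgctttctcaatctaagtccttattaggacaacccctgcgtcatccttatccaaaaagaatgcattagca
Atf3, lost, chr1:191230649-191230848: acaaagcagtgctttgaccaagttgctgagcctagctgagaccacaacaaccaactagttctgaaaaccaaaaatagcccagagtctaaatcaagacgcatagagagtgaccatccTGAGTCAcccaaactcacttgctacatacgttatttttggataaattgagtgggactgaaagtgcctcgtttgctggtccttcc
Ankrd55, lost, chr13:112363278-112363477: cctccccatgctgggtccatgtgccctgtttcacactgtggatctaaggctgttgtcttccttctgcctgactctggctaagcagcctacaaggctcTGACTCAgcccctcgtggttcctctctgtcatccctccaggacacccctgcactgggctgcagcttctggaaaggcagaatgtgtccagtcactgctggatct
Hlx, lost, chr1:184618029-184618228: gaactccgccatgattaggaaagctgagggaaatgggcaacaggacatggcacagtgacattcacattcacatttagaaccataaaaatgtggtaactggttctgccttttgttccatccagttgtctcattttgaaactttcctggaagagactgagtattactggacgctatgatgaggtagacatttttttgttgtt
Tmem267, gained, chr13:119601925-119602124: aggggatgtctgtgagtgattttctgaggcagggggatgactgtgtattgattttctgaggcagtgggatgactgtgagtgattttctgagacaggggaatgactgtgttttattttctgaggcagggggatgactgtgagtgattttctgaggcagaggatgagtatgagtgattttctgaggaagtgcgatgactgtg
Wee1, gained, chr7:110109310-110109509: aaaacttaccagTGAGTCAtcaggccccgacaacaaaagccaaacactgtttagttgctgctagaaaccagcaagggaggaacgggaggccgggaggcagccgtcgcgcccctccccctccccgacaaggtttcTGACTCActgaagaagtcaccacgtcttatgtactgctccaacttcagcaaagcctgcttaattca

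All 3 kept windows held a TRE, as did 3 of the 5 lost windows. The She window held 2 TREs, and the Iqgap1 window held 2 copies of AGGTCA beside its TRE. The gained window at Tmem267 is a repeat in which tgattttctgag occurs 5 times, and 98% of its bases are masked as repeats in the reference. It overlapped no ATF3 or JunD peak of either genotype and no PPARγ, PU.1 or CEBPα Veh peak, whereas the Wee1 window overlapped ATF3, JunD, PPARγ and PU.1 peaks.

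Of the 15543 wild-type Jun loci, 3389 were kept in the knockout, or 21.8% (95% Wilson interval 21.2 to 22.5%), and 12154 were lost, or 78.2%. The knockout list added 901 gained loci, 21.0% of its 4290 loci (19.8 to 22.2%). The counts of the deposited lists are tags that were not scaled to library size, and they summed to 466030 in wild type and 88033 in the knockout. The lowest count was 11 in both lists, the median 25 in wild type and 18 in the knockout, and the highest 127 and 128. At kept loci the knockout count was lower than or equal to the wild-type count in all but 42 loci, with a median ratio of 0.48 (quartiles 0.40 and 0.60). The number of mapped tags behind the knockout list is not given in the sources used here. A shorter list from shallower sequencing or weaker enrichment and a loss of Jun from chromatin therefore cannot be told apart from the 2 list lengths alone, and the loci were also compared by rank and at equal list lengths.

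**Figure D1:**
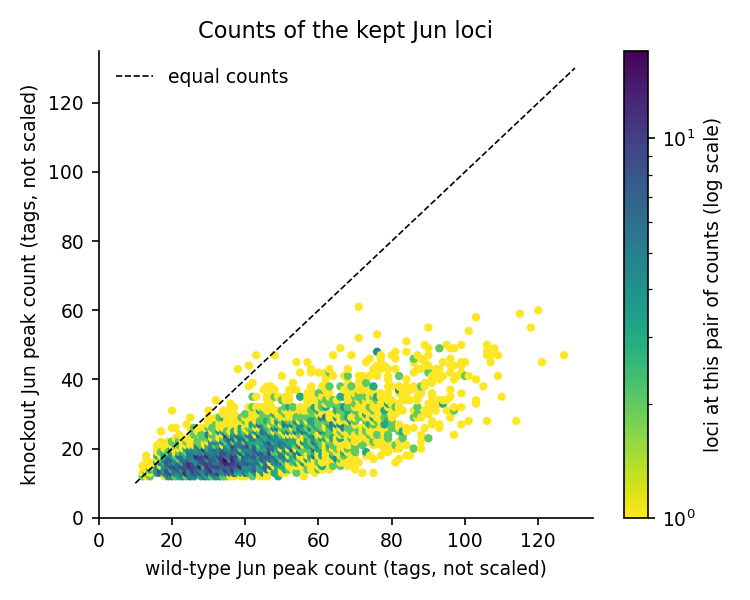
Wild-type (x axis) and knockout (y axis) Jun peak counts at the 3389 kept loci, in tags not scaled to library size. Colour gives the number of loci at each pair of counts on a log scale and the dashed line marks equal counts. All but the 42 loci above the line lie on or under it.

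The strongest wild-type peaks were kept most often. The wild-type loci were divided by count into 10 bins of equal size. In the strongest bin, with counts between 51 and 127, 1121 of 1554 loci or 72.1% (69.9 to 74.3%) were kept. The share was lower in each following bin, at 46.3% in the second, 34.4% in the third and 14.4% in the fifth, and it reached 1.35% (0.89 to 2.06%) in the last, with counts between 11 and 15. Kept loci had a median wild-type count of 42 (quartiles 32 and 57) and lost loci one of 23 (18 and 31), so the classes overlapped over nearly the whole range of counts. Over the kept loci, Spearman's rank correlation of the wild-type and knockout ranks was 0.65, given as a description because the loci come from 1 list per genotype.

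The 5 strongest kept loci stood near the top of both lists. The strongest wild-type peak of all, 30.0 kb downstream of the TSS of She, an adaptor protein gene, had a count of 127 in wild type and 47 in the knockout, where it ranked 46. The peak 19.3 kb upstream of Slfn2, a Schlafen family gene of immune cells, had 121 and 45. The peak 27.2 kb upstream of Iqgap1, a scaffold of the actin cytoskeleton, had 120 and 60 and ranked 3 and 8. In an intron of Jazf1, with the nearest TSS at Tax1bp1, the counts were 118 and 55, and 3.90 kb upstream of Treml1 they were 115 and 59. All 5 also carried ATF3 and JunD peaks in both genotypes and a PPARγ peak.

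Some of the strongest wild-type peaks had no knockout peak. Of the 100 strongest, 90 were kept and 10 lost, and of the 500 strongest, 427 were kept and 73 lost. The strongest lost locus, at chr2:132221579-132221831 between genes and 25.9 kb downstream of the Tmem230 TSS, had a count of 118 and ranked 4 in wild type. It carried no PPARγ peak, kept a JunD peak (117 in wild type and 80 in the knockout) and had an ATF3 peak in wild type alone (136). The next, at chr10:117277807-117278196 in the UTR of Lyz2, the macrophage lysozyme gene, had a count of 111 and ranked 8. At that Lyz2 locus JunD had 48 in wild type and no peak in the knockout, ATF3 had no peak in wild type and 30 in the knockout, and Jun had no peak in BALB/cJ mice or after KLA. The CEBPα Veh list held a peak of 164 there and the PU.1 Veh list one of 514.

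The other lost loci of highest count named here kept a JunD peak, and all but the one at Hlx kept an ATF3 peak. Of the 10 lost loci among the 100 strongest, 9 had an ATF3 peak in wild type and 8 in the knockout. For JunD these numbers were 10 and 7. The locus in an intron of Vmp1 at chr11:86586877-86587263, nearest to the TSS of Tubd1, had a Jun count of 107 in wild type, and its ATF3 peak had 149 in wild type and 107 in the knockout and its JunD peak 119 and 86. The locus 12.7 kb upstream of Atf3, a stress-induced AP-1 gene, had a Jun count of 101 beside a PPARγ peak of 444 that ranked 42 in the PPARγ list. Its ATF3 peak had 272 in wild type and 150 in the knockout, and its JunD peak 182 and 145. In an intron of Ankrd55 the Jun count was 99, with ATF3 at 202 and 133 and JunD at 210 and 153. These 3 loci also had Jun peaks in BALB/cJ TGEMs, with counts of 114, 115 and 84. The fifth PPARγ-bound lost locus by count lay 114 kb downstream of Hlx, a homeobox gene, with a Jun count of 94, JunD at 137 and 140, and ATF3 at 288 in wild type with no peak in the knockout.

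The PPARγ, PU.1 and CEBPα Veh peaks of wild-type TGEMs were compared with the 3 classes. A PPARγ peak lay at 86.7% (85.5 to 87.8%) of kept, 60.1% (59.2 to 60.9%) of lost and 61.6% (58.4 to 64.7%) of gained loci. PU.1 lay at 72.9%, 58.1% and 54.7% of kept, lost and gained loci, and CEBPα at 51.8%, 34.9% and 22.2%. For all 3 factors the share was highest at the kept loci, and 7301 of the 10238 PPARγ-bound wild-type Jun loci were lost.

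**Figure D2:**
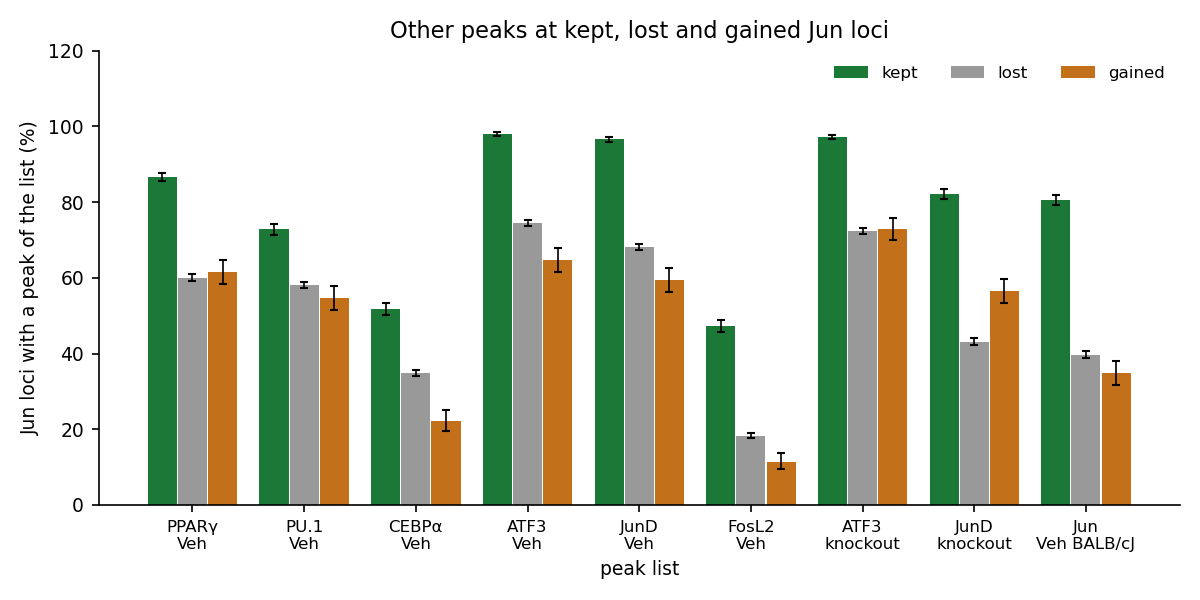
Percent (y axis) of kept (3389), lost (12154) and gained (901) Jun loci that overlap a peak of each list on the x axis, Veh lists of C57BL/6 unless named otherwise, with 95% Wilson intervals. The kept loci have the highest share in each of the 9 lists, from 47.3% for FosL2 to 98.0% for ATF3.

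Because strong Jun peaks were kept more often and also overlapped other peaks more often, loci with and without a PPARγ peak were compared within these count bins. In every bin the PPARγ-bound loci were kept more often. In the strongest bin 1061 of 1440 bound loci (73.7%, 71.3 to 75.9%) and 60 of 114 unbound loci (52.6%, 43.5 to 61.6%) were kept. In the fifth bin the shares were 16.3% and 10.1%, and in the last 2.96% and 0.41%. Averaged over the bins the difference was 7.89 percentage points (6.40 to 9.38), against 20.2 points (19 to 21.3) without bins. Counts still varied inside a bin, from 51 to 127 in the strongest, and the part of this in the differences within bins was not tested. The ratio of knockout to wild-type count at kept loci went the other way. Its median was 0.48 (quartiles 0.39 and 0.59) at the 2937 kept loci with a PPARγ peak. At the 452 without one it was 0.54 (0.43 and 0.67). The ratio was not compared within count bins.

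**Figure D3:**
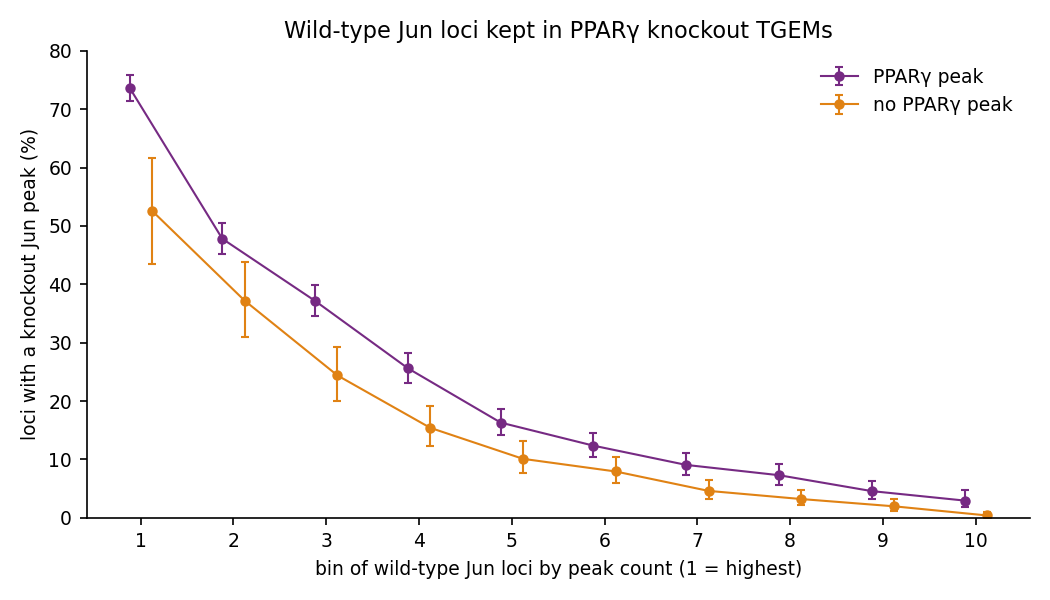
Percent of wild-type Jun loci with a knockout Jun peak (y axis) by bin of wild-type count (x axis, 10 bins, 1 is the highest), for loci with and without a PPARγ peak in wild type, with 95% Wilson intervals. Both lines fall from left to right, and the PPARγ-bound loci lie above the unbound ones in every bin, from 73.7% against 52.6% to 2.96% against 0.41%.

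The kept share also followed the strength of the PPARγ peak. Among PPARγ-bound loci it was 43.9% (40.9 to 46.9%) in the highest of 10 bins of PPARγ count, from 144 to 565, and 11.3% (9.53 to 13.4%) in the lowest, from 12 to 25. The median wild-type Jun count moved with it, from 40 to 21, and its part in this order was not tested. The strongest PPARγ peaks were nonetheless not always at kept loci. Among the lost loci with the strongest PPARγ peaks, chosen after their values were seen, was one 31.9 kb downstream of Ccr1, a chemokine receptor gene, with a PPARγ count of 500 and a wild-type Jun count of 42.

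PU.1 and CEBPα gave smaller differences than PPARγ within the count bins. The difference in percent kept within bins was 2.75 points (1.55 to 3.95) for PU.1-bound loci, which were kept more often in 9 of 10 bins, against a plain difference of 10.6 points. For CEBPα-bound loci it was 0.56 points (-0.58 to 1.70), with 5 of 10 bins higher, although the plain difference was 12.2 points. For the other AP-1 monomers the difference was 14.4 points (10.4 to 18.5) for an ATF3 peak and 14.1 points (10.9 to 17.2) for a JunD peak in wild type, and 2.11% and 2.90% of the loci without these peaks were kept. Few strong loci lacked these peaks: in the strongest bin 8 loci were without ATF3 and 12 without JunD, of which 3 were kept in each case. Without the bins that held under 20 loci on either side, a choice made after seeing the data, the differences were 9.40 points over 8 bins for ATF3 (7.72 to 11.1) and 10.3 points over 9 bins for JunD (8.18 to 12.5). FosL2, a Fos family protein with a short Veh list, gave 7.16 points (5.65 to 8.67).

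**Figure D4:**
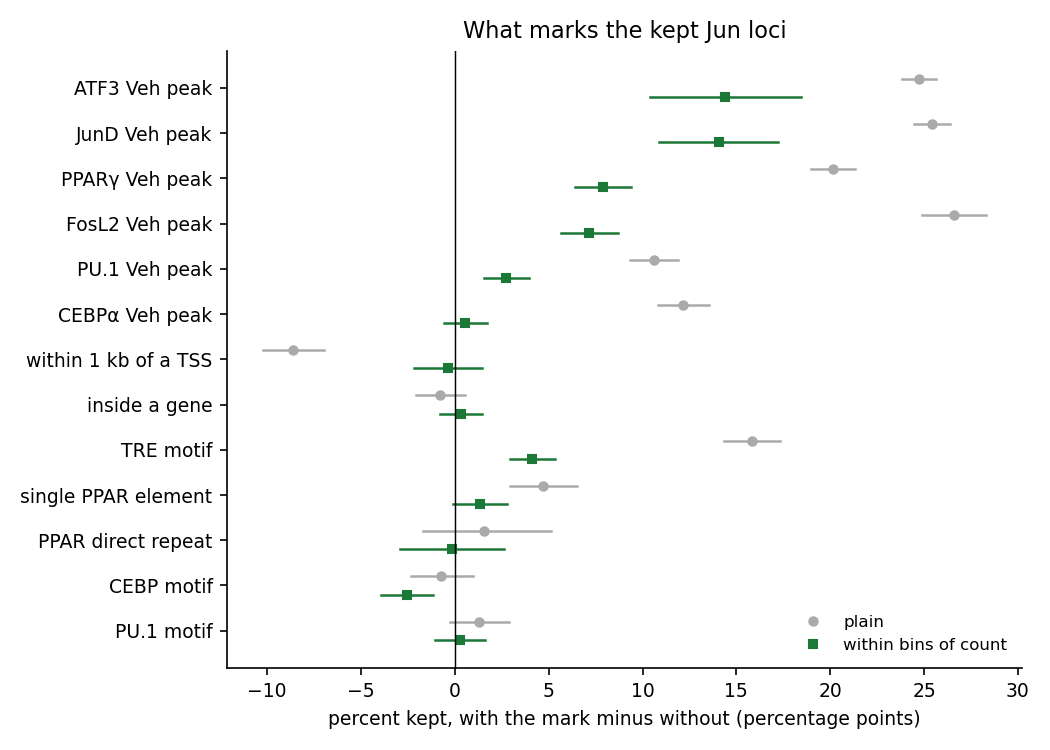
Difference in the percent of wild-type Jun loci kept, with minus without each mark (x axis, percentage points; y axis, the mark), plain and averaged within the 10 bins of wild-type count, with 95% intervals. Within bins the differences are 14.4 points for ATF3, 14.1 for JunD and 7.89 for PPARγ, while the intervals for CEBPα peaks and for a TSS within 1 kb include 0. The single PPAR element is AGGTCA and the direct repeat its doubled form.

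The kept share rose with the number of other factors at a locus. Of 5 other wild-type Veh lists (ATF3, JunD, PU.1, CEBPα and PPARγ), loci with none were kept in 9 of 853 cases (1.06%, 0.56 to 1.99%), those with 3 in 17.2% and those with all 5 in 41.5% (39.7 to 43.3%). The median wild-type Jun count was 15, 25 and 37 in these groups. Where both ATF3 and JunD were bound, PPARγ-bound loci were kept in 35.1% of 8071 cases and unbound loci in 15.9% of 2475, a difference of 9.50 points (7.33 to 11.7) within bins. Where one or both of these monomers were missing, 4.85% and 2.05% were kept, a difference of 1.71 points (0.69 to 2.73).

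Lost and gained loci lay within 1 kb of a TSS more often than kept loci, and the shares in introns and between genes were close for kept and lost loci. The median distance to the nearest TSS of a protein-coding gene was 19.2 kb for kept, 16.2 kb for lost and 15.0 kb for gained loci. A TSS lay within 1 kb of 9.74% (8.78 to 10.8%) of kept, 16.1% (15.5 to 16.8%) of lost and 17.3% (15.0 to 19.9%) of gained loci. Within count bins the loci within 1 kb of a TSS differed from the others by -0.38 points in percent kept (-2.20 to 1.44), an interval that includes 0. Introns held 48.5% of kept and 47.6% of lost loci, and intergenic sequence 47.3% and 46.2%. The share kept lay between 19.7% on chromosome 2 and 24.5% on chromosome 16 for the autosomes and was 9.94% (6.38 to 15.2%) on chromosome X, where 18 of 181 loci were kept. The X loci had a median count of 20 against 26 on the autosomes. Within count bins the share kept on X minus that of the other loci was 2.41 points (-6.49 to 11.3), an interval that includes 0.

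The sequence under the peaks differed mainly in the TRE. In the central 200 bp a TRE was found at 48.2% (46.5 to 49.9%) of kept, 27.9% (27.1 to 28.7%) of lost and 26.5% (23.7 to 29.6%) of gained loci, against 3.21% of all 200-bp tiles of chromosome 19. The TREs lay a median of 21.5 bp from the centre at kept and 23.5 bp at lost loci. Within count bins, loci with a TRE were kept more often by 4.13 points (2.91 to 5.34). A CRE (TGACGTCA), the longer AP-1 and ATF site, was found at 1.80% of kept and 1.84% of lost loci and at 0.13% of the tiles.

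Sites of the partner factors differed less between kept and lost loci. AGGTCA, the single PPAR element, was found at 21.3% (20.0 to 22.7%) of kept, 17.2% (16.6 to 17.9%) of lost and 17.2% of gained loci and at 11.4% of the tiles. Within bins its difference in percent kept was 1.32 points (-0.11 to 2.75), an interval that includes 0. The direct repeat of AGGTCA with 1 base between, with up to 2 mismatches allowed, was found at 4.19% of kept and 3.85% of lost loci and at 2.50% of tiles when every 10th was read. Among lost loci AGGTCA was found at 17.9% of those with a PPARγ peak and 16.2% of those without one, a difference of 1.78 points (0.41 to 3.13). The CEBP element TTGCNNAA stood apart, with fewer loci kept where it was present by 2.55 points within bins (interval -3.94 to -1.16). AGGAAGT, the PU.1 element, was found at 22.7% of kept and 21.4% of lost loci. Motifs were read on both strands, an AGGTCA also counts within the direct repeat, and a match describes the letters and not a bound site.

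Equal list lengths were used to take the difference in the number of peaks out of the comparison. Among the 4290 strongest peaks of each list, 2258 of 4289 wild-type loci or 52.6% (51.2 to 54.1%) were kept, 2031 were lost and 2032 gained. Of those gained loci, 1131 or 55.7% had a weaker wild-type Jun peak farther down the list. At shorter lengths 1201 of 2145 loci (56.0%), 549 of 1000 (54.9%) and 89 of 200 (44.5%) were kept. Other Jun lists were set against the same wild-type list at 4290 peaks, so these comparisons share their wild-type peaks. In them 69.7% (68.3 to 71.0%) of wild-type Jun loci were found in Jun peaks of BALB/cJ TGEMs and 55.2% (53.7 to 56.7%) in Jun peaks after KLA. The length of 4290 was the whole knockout list, down to its weakest peaks. It was only the strongest part of the BALB/cJ list, with 10957 peaks, and of the KLA list, with 17480. The order of the knockout and KLA lists turned at shorter lengths. The knockout share minus the KLA share was -2.58 points (-4.68 to -0.47) at 4290 peaks, 9.20 points (4.82 to 13.5) at 1000 and 13.5 points (4.00 to 22.7) at 200. Against BALB/cJ the knockout share differed by -17.0 points (-19.0 to -15.0) at 4290, -10.7 points (-14.9 to -6.42) at 1000 and -8.50 points (-18.1 to 1.28) at 200, where the interval includes 0.

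ATF3 and JunD lists of the same knockout were treated in the same way. The ATF3 lists held 23160 peaks in wild type and 28318 in the knockout, and the JunD lists 19653 and 19355. A length of 4290 therefore took in the whole knockout Jun list, down to its weakest peaks, but only the strongest part of each ATF3 and JunD list. At 4290 peaks, 82.9% (81.8 to 84.0%) of ATF3 loci and 72.7% (71.3 to 74.0%) of JunD loci were kept. The Jun share was lower by 30.3 percentage points than that of ATF3 (difference -30.3, interval -32.1 to -28.4) and by 20.1 than that of JunD (difference -20.1, interval -22.0 to -18.0). At 200 peaks the differences were -27.0 (-35.9 to -17.4) and -15.5 points (-24.9 to -5.71). Over whole lists 78.2% of the ATF3 loci and 53.5% of the JunD loci were kept. PPARγ-bound loci were kept more often for these monomers too, by 7.70 points (6.66 to 8.75) within bins for ATF3 and 15.5 points (13.9 to 17.2) for JunD, against 7.89 for Jun.

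**Figure D5:**
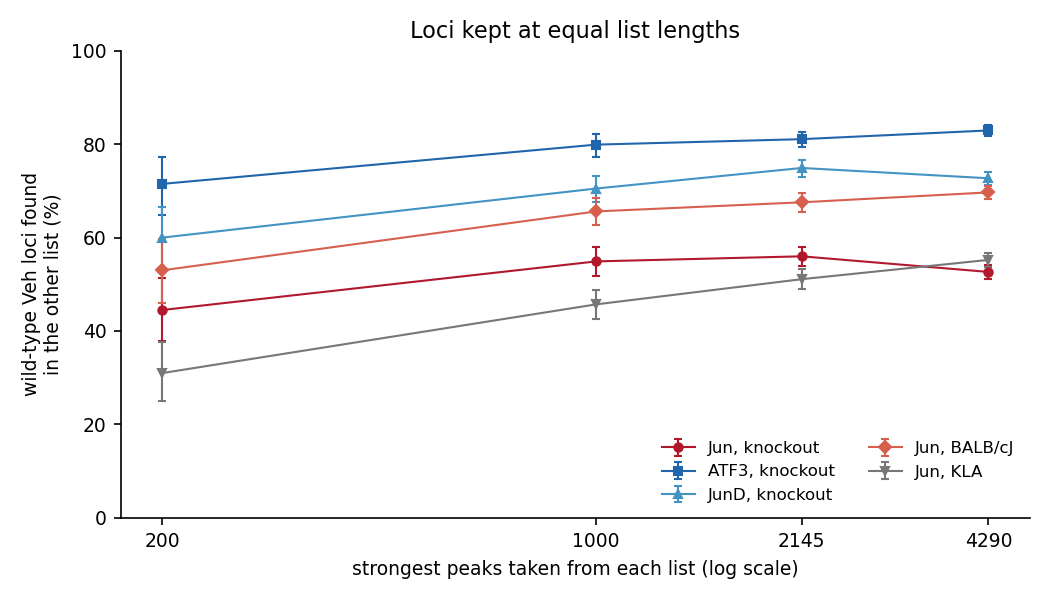
Percent of wild-type Veh loci found in the other list (y axis) when the same number of strongest peaks is taken from each list (x axis, log scale), with 95% Wilson intervals. At 4290 peaks Jun in the knockout is at 52.6%, JunD at 72.7% and ATF3 at 82.9%, and the wild-type Jun peaks found in BALB/cJ are at 69.7%.

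The kept sites at equal lengths were marked by the same factors. PPARγ peaks lay at 91.3% (90.1 to 92.4%) of the kept and 81.2% (79.4 to 82.8%) of the lost loci among the 4289, and the difference in percent kept within bins was 15.0 points (10.2 to 19.8). ATF3 lay at 99.6% and 97.3%, and JunD at 99.2% and 96.0%, of kept and lost loci. A TRE was found at 54.6% and 42.2%, with 6.67 points (3.80 to 9.54) within bins. For CEBPα peaks (1.17 points, -1.68 to 4.01), a TSS within 1 kb (1.02 points, -4.31 to 6.35) and AGGTCA (3.35 points, -0.10 to 6.80) the intervals included 0.

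Other AP-1 monomers had knockout peaks at many of the lost Jun loci. In the knockout, 9456 of the 12154 lost loci or 77.8% (77.1 to 78.5%) carried an ATF3 or a JunD peak, 37.6% carried both and 22.2% neither. These shares include peaks that were absent in wild type. Of 3111 lost loci without a wild-type ATF3 peak, 1195 had one in the knockout, and for JunD it was 849 of 3880. At kept loci 98.5% carried at least one of ATF3 and JunD and 81.0% both. Of the lost Jun loci with a wild-type ATF3 peak, 84.0% (83.2 to 84.7%) had an ATF3 peak in the knockout as well. Of those with a wild-type JunD peak, 53.1% (52.0 to 54.2%) kept JunD. Over all wild-type ATF3 and JunD loci these shares were 78.2% and 53.5%, so the JunD share was close to that of all JunD loci. At kept Jun loci the corresponding shares were 97.7% and 83.2%. For the 433 lost loci of the strongest bin, 98.2% (96.4 to 99.1%) carried ATF3 or JunD in the knockout. A Jun peak in at least one of 3 other Jun lists (C57BL/6 after KLA, BALB/cJ with Veh and with KLA) lay at 65.5% of lost and 95.9% of kept loci.

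Gained loci were weak peaks. On the assembled chromosomes the 855 gained loci had counts from 11 to 44 with a median of 15, and in the lower part of the knockout list, from rank 2146 on, 711 of 2145 loci were gained, against 7 of 329 at ranks 101 to 429. Most gained loci were bound by other factors in wild type, though less often than all 16444 loci. ATF3 lay at 64.8% (61.6 to 67.9%) of gained against 78.7% of all loci, and JunD at 59.5% against 73.5%. At least one of ATF3, JunD, PU.1, CEBPα and PPARγ lay at 88.1% (85.8 to 90.1%) of gained loci. Of the 15543 wild-type loci, 853 had none of these 5. Another Jun list held a peak at 60.9% (57.7 to 64.1%) of the gained loci. ATF3 was present in the knockout and absent in wild type at 143 of the 901 gained loci (15.9%), and JunD also at 143. For ATF3 this held at 1195 of the 12154 lost and 48 of the 3389 kept loci. For JunD it held at 849 lost and 62 kept loci. The whole ATF3 list was also longer in the knockout, with 28318 peaks against 23160 in wild type.

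The strongest gained loci lay outside the chromosomes. Of the 901, 46 were on unplaced scaffolds or the mitochondrial genome, against 1 of the kept and 2 of the lost loci, and 9 of the 10 gained loci within the first 100 ranks of the knockout list were among them. The 5 strongest had counts of 128, 123, 118, 86 and 71, each overlapped ATF3 and JunD peaks of the knockout and a PPARγ peak, and none overlapped an ATF3 or JunD peak of wild type. The lists themselves differed there: the 3 knockout lists and the PPARγ list held between 45 and 70 peaks outside the chromosomes, and the wild-type Veh lists of ATF3, Jun and JunD between 3 and 5. Without these peaks 20.2% of the knockout loci were gained, and the share was 13.3% over peaks with an IDR of 0.01 or less and 12.6% over the strongest 50% of each list.

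The gained loci on chromosomes that had the highest counts were named after their values were seen. Tmem267, the repeat shown above, had a knockout count of 44. The locus 12.6 kb upstream of Wee1, the gene of a cell cycle kinase, had 40, with Jun peaks in BALB/cJ (68) and after KLA (57). An intronic locus of Zmiz1, a transcriptional coregulator gene, had 36, beside ATF3 peaks of 285 in wild type and 198 in the knockout. The locus 65.7 kb upstream of Sertad2 had 35 and that 2.81 kb upstream of Mcl1, a survival gene of the Bcl2 family, 33. At Mcl1 the Jun list after KLA held a peak of 96 and the ATF3 wild-type list one of 82, while the JunD lists of both genotypes, the ATF3 knockout list and the PPARγ list held none.

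By nearest TSS the wild-type loci belonged to 6335 protein-coding genes, of which 2279 had a kept locus and 4056 had none. The genes with most kept loci were Klf6 with 11 of 33, Runx1 with 10 of 24, Trib1 with 9 of 27, Tomm20 with 8 of 29 and Tprg with 7 of 13, where ties were ordered by the highest wild-type count. Klf6 encodes a zinc finger factor of activated macrophages, Runx1 a factor of blood cell development and Trib1 a pseudokinase that controls CEBPα protein. Among genes with no kept locus, St8sia4, which encodes a polysialyltransferase, had 12 lost loci with counts up to 38. Gadd45a, a stress response gene, Zc3h12a, which encodes an RNase that degrades cytokine mRNAs, Tbc1d22a and Mdfic had 10 lost loci each, with counts up to 64, 58, 44 and 43. The genes with most gained loci were Zmiz1, Zeb2, Gm11084 and Gm47283 with 3 each, followed by Arhgap22 with 2. Klf6 also had 2 and came after Arhgap22 because ties were ordered here by the highest knockout count, 41 against 45. Zeb2, which encodes a zinc finger repressor of myeloid cells, also had 4 kept and 17 lost loci.

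Genes of PPARγ and lipid metabolism were searched with 5 kb on each side. Of 20 genes, 16 had wild-type Jun loci, and 10 of 43 loci were kept (23.3%, 13.2 to 37.7%), beside 21.8% of all wild-type loci. At Pparg itself all 6 loci were lost, with counts of 60, 46, 40, 26, 20 and 15. The strongest of them, at chr6:115463001-115463321 over a coding exon of Pparg, had JunD counts of 130 in wild type and 128 in the knockout and ATF3 counts of 127 and 73, so that sequence of this position was read in the knockout. Whether the labels' deletion lies elsewhere in the gene cannot be read from peak lists.

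Cd36, which encodes a fatty acid receptor, had 3 kept and 3 lost loci, each with a PPARγ peak. Its kept loci had wild-type counts of 77, 62 and 38 and knockout counts of 18, 21 and 19, and its lost loci had 49, 46 and 25. At Lipa, the gene of lysosomal acid lipase, 2 of 5 loci were kept, and the stronger of them had 56 in wild type and 25 in the knockout under a PPARγ peak of 563. Plin2, a lipid droplet protein gene, kept 1 of 2 loci, Abca1, a cholesterol transporter gene, 1 of 6, and Rxra, which encodes the partner of PPARγ, 2 of 3. Fabp4, Fabp5, Lpl, Nr1h3 and Abcg1 kept none of their 1, 1, 2, 1 and 2 loci, and the highest count among those was 50, at Nr1h3.

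The inflammatory genes had the lowest kept share of the 6 lists. They kept 6 of 38 loci (15.8%, 7.44 to 30.4%), and 4 of the 6 lay at Dusp1, the gene of a MAP kinase phosphatase, whose annotated span (chr17:26505590-26562128) held 13 wild-type loci. At Dusp1 the locus with the highest wild-type count had 86 in wild type and 20 in the knockout. A different locus had the highest knockout count there, with 84 in wild type and 38 in the knockout. Tnf and Ccl2 kept their single loci, with 57 and 46 in wild type and 25 and 13 in the knockout. Il1a, Il1b, Il1rn, Il12b, Ccl4, Nos2, Nfkbia and Tnfaip3 kept none, and the highest lost count among them was 69, at Tnfaip3, which encodes an inhibitor of NF-κB signalling. The interval of this list includes the share of all loci. The median wild-type count of its loci was 35, against 25 over all wild-type peaks.

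AP-1 genes kept 7 of 28 loci (25.0%, 12.7 to 43.4%). The single locus at Jund, with 68 in wild type and 32 in the knockout, was kept, as were 1 of 3 at Jun (72 and 33 at its strongest), 1 of 3 at Fos, 1 of 4 within 5 kb of Atf3 and both at Batf3. The 3 loci at Junb and 4 at Jdp2 were lost, and Jdp2 and Fosl2 each had 1 gained locus. Lysosome genes kept 17 of 61 loci (27.9%, 18.2 to 40.2%), among them 4 of 7 at Tfeb, the gene of a regulator of lysosome genes, and 1 of 3 at Gpnmb, where the highest counts were 70 and 28. At Grn, the progranulin gene, all 5 loci were lost. Matrix genes kept 7 of 26 (26.9%, 13.7 to 46.1%), including the strongest locus of Adam8, a membrane protease gene, with 73 and 28, and alternative activation genes 6 of 14 (42.9%, 21.4 to 67.4%), including 2 of 3 at Arg1, the arginase gene, and both at F13a1. The intervals of all 6 lists include 21.8%. The median wild-type count of the loci ranged from 22 for matrix genes to 38 for alternative activation genes. Kept shares of the lists were not compared within count bins.

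Markers of cell types checked the labelled cells. Jun loci of wild type lay at 16 of 18 macrophage marker genes found in the annotation, and 16 of their 54 loci were kept, among them 8 of 14 at Runx1, with the highest counts of 78 and 29, the stronger of 2 at Cd68, with 79 and 33, and 1 of 2 at Cd14, with 41 and 38. Neutrophil genes had 2 wild-type loci over 9 genes, lymphocyte genes 4 over 8, mast cell genes none over 3, and adipocyte and mesothelium genes 2 over 5. One of these 8 loci, at Cd3g with 24 and 14, was kept. Peak lists do not give the number of cells of a type.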

How the data were processed

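ChIP was done with a Jun antibody on cultured TGEMs. The authors mapped reads to mm10 with Bowtie2, called 200-bp peaks against input with HOMER, with its local and clonal filters off and a loose FDR, and left peaks whose IDR between replicate experiments was under 0.05. The deposited count of a peak is a whole number of tags, not scaled to library size; how replicates were combined is not given in the sources used here. The score that the authors deposited is the scaled IDR, from 540 to 1000. No normalization makes counts comparable between lists, so peaks were ranked by count within a list.

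Python 3.11.15, numpy 2.4.6, pandas 2.3.3, pysam 0.24.0 and matplotlib 3.10.9 were used. Genes were protein-coding genes of GENCODE vM21, sequence was GRCm38, and locus positions were read as given. Motifs were exact matches in the central 200 bp, except the direct repeat, for which up to 2 mismatches were allowed. Shares have Wilson intervals and differences Newcombe intervals, while differences within bins are means over the 10 bins of wild-type count weighted by size. Joins and differences were tested on simulated data. Named loci are the 5 of highest count among kept, lost, gained and PPARγ-bound lost loci, named genes the 5 with most kept, most lost with none kept, and most gained loci, with 6 gene lists and 5 marker lists. Members and lists were chosen with earlier results of these data known. The empty BALB/cJ Fos Veh list was not used.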

Additional observations from a re-analysis of the deposited data

How the results depend on the processing

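No paired analysis was possible because each genotype has 1 list, and for the same reason no replicate could be left out. Values for 13 results were recomputed under 13 alternatives, of which the restriction to chromosomes 1 to 19, X and Y was chosen after seeing the data. No called direction changed, 62 of 93 values stayed within the 95% interval of the value reported, and 31 moved outside it.

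With centres within 100 bp, 20.5% of wild-type loci were kept (50.5% at equal lengths), 25.7% of knockout loci were gained, 73.7% of lost loci carried ATF3 or JunD and 57.6% of gained loci another Jun peak. With 50% reciprocal overlap these were 20.9% kept, 24.1% gained and 74.7% of lost loci with ATF3 or JunD. With a scaled IDR of 830 or more they were 19.4%, 13.3% and 84.4%. The strongest 50% of each list gave 24.1%, 12.6% and 88.7%, and 54.6% of gained loci with another Jun peak. Loci farther than 3 kb from a TSS gave 23.2%, 19.6% and 78.5%. At 50% of the knockout list length, 56.0% were kept and Jun minus ATF3 was -25.1 points. On the assembled chromosomes 64.1% of gained loci had another Jun peak. Without bins the differences in percent kept were 20.2 points for PPARγ, 10.6 for PU.1, 12.2 for CEBPα, -8.65 for a TSS within 1 kb, 15.8 for a TRE and 4.70 for AGGTCA. At equal lengths they were 15.0 for PPARγ, 5.18 for PU.1, 6.67 for a TRE and 3.35 for AGGTCA. The share of knockout loci gained moved by over 1.5 times with a stricter IDR or the strongest 50%, as did the differences in percent kept given here without bins and at equal lengths. Apart from these 13 results, leaving out bins of under 20 loci on either side, also chosen after seeing the data, gave 9.40 points for ATF3 and 10.3 for JunD. The unknown depth of the knockout libraries limits every count of lost loci.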
